A study of Mus musculus with 4 samples.

Results

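The insulin-like growth factor (IGF) axis was examined in larynx tissue of *Shh*-/- and wild-type (WT) mouse embryos through 8 genes, chosen by name out of the 46983 genes that each table lists. They comprised the ligand gene *Igf1*, the receptor genes *Igf1r* and *Igf2r*, and *Igfbp2*, *Igfbp3*, *Igfbp4*, *Igfbp5* and *Igfbp7*, which encode IGF-binding proteins (IGFBPs). Bulk RNA-seq was performed at E10.5 (32 to 35 somites) on 2 pools of *Shh*-/- and 2 pools of WT tissue, each of 3 larynxes, with the pools numbered 1 and 2 for *Shh*-/- and 4 and 6 for WT. The mutants carried the null allele Shhtm1amc, which removes Sonic hedgehog (SHH) from every cell of the embryo rather than from the larynx alone, and both genotypes were on a Swiss Webster background. The pool labels write the mutant genotype as Shh+/-, whereas the design text of the series gives *Shh*-/-, which is the name used here. Values are TPM, the abundance of a gene's transcripts after scaling for their length, expressed as a share of the same fixed total in every library.

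IGF1 and IGF2 are secreted growth factors that activate the receptor tyrosine kinase IGF1R and, through its adaptors, the PI3K-AKT and MAPK pathways, and they are needed for normal growth of the embryo. IGF2R, the cation-independent mannose-6-phosphate receptor, carries IGF2 to the lysosome for degradation and does not transmit a growth signal of the same kind. The IGFBPs bind IGFs outside the cell and can hold them away from the receptor or deliver them to it, and proteases such as PAPP-A release the ligand from some of them. IGFBP7 differs from the others in binding IGFs only weakly. Hedgehog (HH) signaling in the embryonic foregut passes mostly from the epithelium, which makes SHH, to the surrounding mesenchyme.

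The libraries differed from each other in ways that may bear on these genes. The RNA integrity number was 8 and 7.7 in *Shh*-/- pools 1 and 2 and 7.7 and 9 in WT pools 4 and 6. RNA taken into cDNA was 130 and 100 ng in *Shh*-/- and 110 and 155 ng in WT, in the same order of pools. Aligned sequence amounted to 1.37 and 3.13 gigabases in *Shh*-/- pools 1 and 2 and to 2.85 and 2.97 gigabases in WT pools 4 and 6. The targeted gene *Shh* measured 10.4 TPM in mutant pool 1, 10.8 TPM in mutant pool 2, 23.7 TPM in WT pool 4 and 42.1 TPM in WT pool 6 (log2 difference -1.50, limma adjusted p = 0.0895), values that cover the whole gene and not the deleted part alone. *Ptch1*, a direct target of HH signaling, measured 12.9 and 13.8 TPM against 57.8 and 55.1 TPM. All 4 HH target genes examined lay lower in both mutant pools than in both WT pools, where 22.7% of all tested genes did so. These values separated the pools named *Shh*-/- here from the WT pools. WT pool 4 stood apart in a different respect, since 8 liver and gut endoderm genes, a list written after values of these data were seen, summed to 2987 TPM there, to 27.3 TPM in WT pool 6 and to 1.89 and 1.36 TPM in *Shh*-/- pools 1 and 2. *Afp*, the fetal plasma protein gene of liver and yolk sac, contributed 2358 TPM of this sum. For this reason the fitted difference of each of the 8 genes is also given without WT pool 4, while the values of all other genes and lists include it.

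Taken by level, the binding protein genes dominated this group of transcripts. In every library *Igfbp5* was the most abundant of the 8 genes, *Igfbp3*, *Igf1r*, *Igf1* and *Igfbp7* held the ranks from 5 to 8, and *Igfbp2*, *Igfbp4* and *Igf2r* took the ranks between. In both WT pools the order of these last genes was *Igfbp2*, *Igf2r* and *Igfbp4*. In both *Shh*-/- pools *Igfbp4* lay above *Igf2r*, and in pool 2 it also lay slightly above *Igfbp2*, from which its mutant levels could not be separated.

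**Figure D1:**
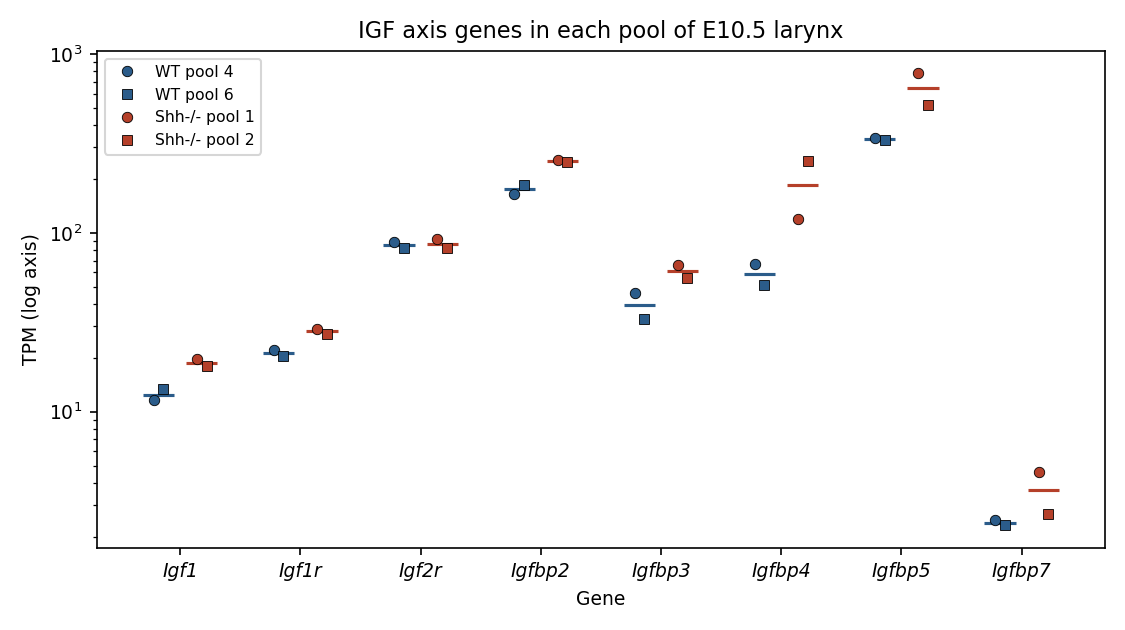
TPM of the 8 IGF axis genes (log axis) in each of the 4 pools, with circles and squares for the pools of a genotype and a short line at the mean of its 2 pools. Both *Shh*-/- pools lie above both WT pools for 7 genes, while the values of *Igf2r* interleave.

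For 7 of the 8 genes both *Shh*-/- pools lay above both WT pools, an arrangement found for 38.0% of all 16972 genes tested, and none lay below in this way. All 8 genes had a mean of at least 1 TPM over the libraries and entered the test, which was limma on log2(TPM + 1) with Benjamini-Hochberg adjustment over every tested gene. At an adjusted p under 0.05 the test called 0 of the 8, against 0.725% of all genes tested (123 genes, 95 higher and 28 lower in *Shh*-/-). An unadjusted p under 0.05 was reached by 6 of the 8, each with the higher value in *Shh*-/-, where 24.8% of all tested genes passed this limit, 17.5% with the higher and 7.22% with the lower value in *Shh*-/-. The fitted difference was above 0 for all 8 genes and for 58.3% of those tested. The median difference of the 8 genes was 0.54 on the log2 scale, and that of all tested genes was 0.08. With 2 pools against 2, the smallest p of a two-sided exact permutation test is 0.33, so none was run. The pools are separate collections of embryos by their labels. The p-values rest only on the spread between the 2 pools of each genotype, which limma moderates toward a trend over all tested genes.

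**Figure D2:**
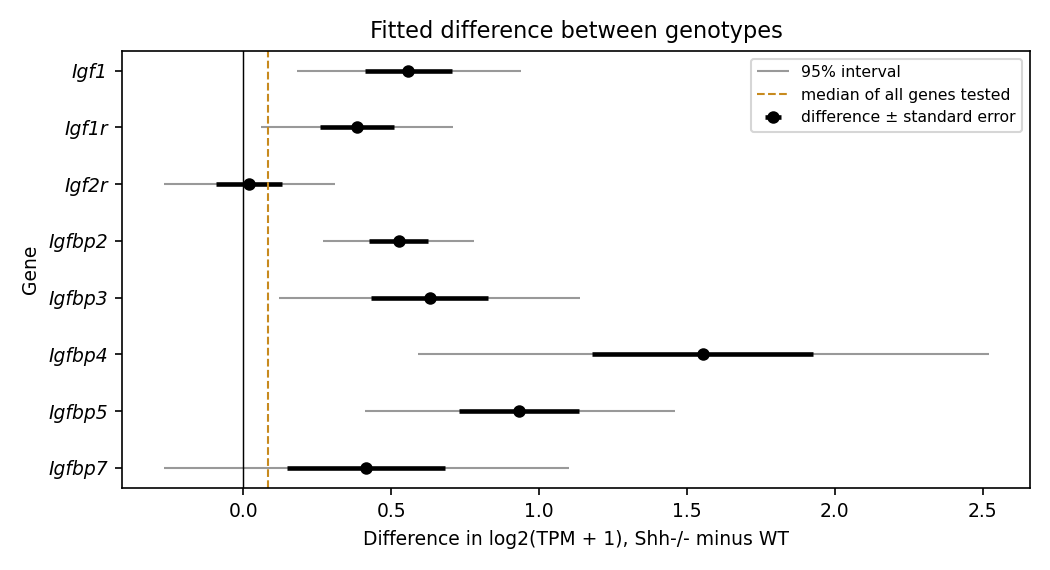
Fitted difference in log2(TPM + 1), *Shh*-/- minus WT, for each gene, with its standard error (thick bars), its 95% interval from limma (thin lines) and the median of all tested genes, 0.08 (dashed). The differences run from 0.02 for *Igf2r* to 1.55 for *Igfbp4*, and the intervals of *Igf2r* and *Igfbp7* reach below 0.

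*Igf1*, the ligand gene, lies on the forward strand of chromosome 10 of mm10, from 87858265 to 87937042. It measured 19.6 and 17.9 TPM in *Shh*-/- pools 1 and 2 and 11.6 and 13.3 TPM in WT pools 4 and 6. Both mutant values were above both WT values, and the means were 18.8 ± 1.20 TPM and 12.5 ± 1.20 TPM (SD, n = 2 pools each). On the log2 scale *Igf1* differed by 0.56 (standard error 0.15), and its limma adjusted p of 0.129 did not pass the threshold. Read coverage behind these values, as FPKM implies it, was 12.9 to 27.9 reads per base, and the coverage column of the tables listed 37.9 to 50.6% of that for *Igf1*, a gene of 8 annotated transcripts. When this listed coverage, scaled by aligned sequence, was used in place of TPM, a choice made after the data were seen, the difference was 0.33, with *Shh*-/- pool 2 at 3.38 and WT pool 6 at 3.37 reads per base and aligned gigabase. Adjusting the libraries for the GC content and length of transcripts moved the difference to 0.82 (adjusted p 0.0714), and without WT pool 4 it was 0.47.

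The receptor genes behaved differently from each other. *Igf1r*, which encodes the signaling receptor for both IGFs (chromosome 7, forward strand, 67952859 to 68226780), measured 29.1 and 27.2 TPM in *Shh*-/- and 22.2 and 20.4 TPM in WT. The pools of a genotype lay close together and the genotypes did not overlap. With a standard error of 0.13, the log2 difference of 0.39 reached a limma adjusted p of 0.162. It was 0.44 without WT pool 4 and 0.26 after median centring of the libraries.

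*Igf2r* (chromosome 17, reverse strand, 12682406 to 12769664) measured 92.0 and 82.1 TPM in *Shh*-/- and 89.3 and 82.5 TPM in WT, so that the genotypes interleaved. Its log2 difference was 0.02 (standard error 0.11, limma adjusted p = 0.933), and the 95% interval from -0.27 to 0.31 covers changes in either direction of up to that size. Without WT pool 4 it was 0.07. Its sign turned under 5 of the 10 processing alternatives and when *Shh*-/- pool 1 or WT pool 6 was left out. Alternatives that changed only the filter, the estimate of variance or the threshold could not move this difference. *Airn*, the non-coding RNA that overlaps *Igf2r* on the opposite strand and silences its paternal copy, was at 28.8 and 15.7 TPM in *Shh*-/- and 21.8 and 19.0 TPM in WT. The library kit keeps strand, but whether strand was used in assembling the genes is not given in the sources used here, so reads of the overlapping genes may not be fully separated. The ratio of *Igf2r* to *Igf1r* TPM within a library was 3.16 and 3.02 in *Shh*-/- pools 1 and 2 and 4.02 and 4.04 in WT. This ratio does not depend on how a library is scaled. Its values did not overlap between genotypes, nor did those of *Igf1r* alone, and the ratio was not tested.

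*Igfbp4* had the largest fitted difference of the 8 genes and also the widest scatter. This gene, whose protein inhibits IGF action until it is cleaved by PAPP-A, lies on chromosome 11 (forward strand, 99041244 to 99054392). It measured 119.5 and 252.2 TPM in *Shh*-/- pools 1 and 2 and 67.0 and 51.2 TPM in WT pools 4 and 6. Both mutant pools were above both WT pools, with means of 185.9 ± 93.9 TPM and 59.1 ± 11.2 TPM (SD, n = 2 each), a ratio of means of 3.15. The log2 difference was 1.55 with a standard error of 0.37 and a limma adjusted p of 0.116. The gap between the mutant pools was 1.07 on the log2 scale, and 97.0% of all tested genes had a smaller gap between these pools. Without *Shh*-/- pool 2 the difference was 1.02, without *Shh*-/- pool 1 it was 2.09, and without WT pool 4 it was 1.74. The read coverage that FPKM implied for *Igfbp4* was 76.0 to 393 reads per base.

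The 3 tested genes whose centred log2(TPM + 1) values over the 4 libraries lay nearest to those of *Igfbp4* were *Pet117*, *Cpt1b* and *Mir6999*, at root mean square distances of 0.15 to 0.16. *Pet117*, a mitochondrial assembly factor gene, measured 11.7 and 22.8 TPM in *Shh*-/- and 4.76 and 4.77 TPM in WT. *Cpt1b*, the muscle form of carnitine palmitoyltransferase, measured 2.12 and 6.13 TPM in *Shh*-/- and 0.91 and 0.13 TPM in WT. These distances describe 4 libraries and were not tested.

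*Igfbp5*, the most abundant of the binding protein genes, encodes a protein that binds IGFs and the extracellular matrix. It lies on the reverse strand of chromosome 1 (72857932 to 72874884) and measured 778.4 and 518.9 TPM in *Shh*-/- and 336.6 and 328.2 TPM in WT. The WT pools nearly coincided, while the mutant pools differed by 0.58 on the log2 scale, and both were above WT. The means were 648.6 ± 183 TPM and 332.4 ± 5.98 TPM (SD, n = 2 each), a ratio of 1.95. The log2 difference was 0.93 (standard error 0.20, limma adjusted p = 0.104). It was 0.64 without *Shh*-/- pool 1, which held the higher value, and 0.95 without WT pool 4.

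*Igfbp2*, whose protein prefers IGF2 and is widely made by embryonic epithelia and liver, lies next to *Igfbp5* in opposite orientation (chromosome 1, forward strand, 72824503 to 72852474), with 5457 bases between their 3′ ends. It measured 256.4 and 248.0 TPM in *Shh*-/- and 165.4 and 184.8 TPM in WT. The pools of each genotype lay close together and the genotypes did not overlap. Its log2 difference of 0.53 (standard error 0.10) had the lowest limma adjusted p of the 8 genes, 0.0895, and it was the only one of them under 0.10, a limit passed by 5.06% of all tested genes. After correction for GC content and transcript length the difference was 0.28 with an adjusted p of 0.31, and without WT pool 4 it was 0.45.

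*Igfbp3*, which encodes the main IGF carrier of adult serum, lies on chromosome 11 (reverse strand, 7206086 to 7213923) and measured 66.0 and 55.6 TPM in *Shh*-/- and 45.8 and 32.8 TPM in WT. The mutant values were above the WT values, but the WT pools differed from each other by 0.47 on the log2 scale. The log2 difference of 0.63 (standard error 0.20) reached a limma adjusted p of 0.155. It was 0.40 without WT pool 6 and 0.86 without WT pool 4. Its neighbor *Igfbp1*, 3539 bases away, measured 0.67 and 0.44 TPM in *Shh*-/-, 20.4 TPM in WT pool 4 and 0.23 TPM in WT pool 6, the pool with the liver transcripts being the one with *Igfbp1*.

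*Igfbp7*, a secreted protein gene expressed by blood vessels among other cells, lies on chromosome 5 (reverse strand, 77349240 to 77408041) and was the least abundant of the 8. It measured 4.58 and 2.68 TPM in *Shh*-/- and 2.47 and 2.32 TPM in WT. Pool 1 stood above the rest and pool 2 lay close to WT. The log2 difference was 0.42 with a standard error of 0.27 and a limma adjusted p of 0.372, and its 95% interval ran from -0.27 to 1.10. Without *Shh*-/- pool 1 the difference was 0.12, without WT pool 4 it was 0.45, and after correction for GC content and transcript length it was 0.24. Its implied coverage of 3.01 to 4.17 reads per base was the lowest of the group, and the gene overlaps *Polr2b* on the opposite strand, which was at 99.5 and 101.1 TPM in *Shh*-/- and 115.0 and 140.0 TPM in WT.

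The summed TPM of the 5 binding protein genes was 1225 and 1077 in *Shh*-/- pools 1 and 2 and 617.2 and 599.3 in WT pools 4 and 6. *Igfbp5* made up 63.6 and 48.2% of this sum in *Shh*-/- and 54.5 and 54.8% in WT, so that its share overlapped between genotypes although its level did not. The share of *Igfbp2* was 20.9 and 23.0% in *Shh*-/- and 26.8 and 30.8% in WT, and was thus lower in both mutant pools. *Igfbp4* made up 9.76 and 23.4% in *Shh*-/- and 10.8 and 8.54% in WT, with *Shh*-/- pool 2 alone set apart. *Igfbp3* made up 5.16 to 7.42% and *Igfbp7* 0.25 to 0.40% over the 4 libraries. The sum was 62.4 and 60.0 times the TPM of *Igf1* in *Shh*-/- and 53.1 and 45.0 times in WT. Relative to the summed TPM of *Igf1* and *Igf2*, it was 0.986 and 1.76 times in *Shh*-/- and 1.34 and 1.35 times in WT, so that this ratio overlapped between genotypes.

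**Figure D3:**
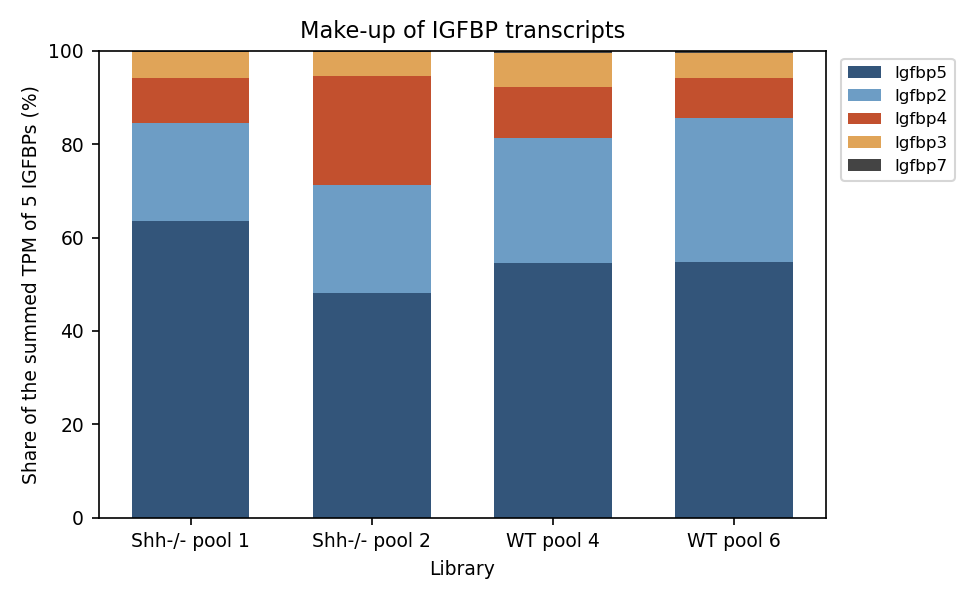
Share of each of the 5 binding protein genes in their summed TPM, in percent, with 1 bar per library; *Igfbp7*, at 0.40% or less, is barely visible at the top. The share of *Igfbp4* is 23.4% in *Shh*-/- pool 2 and at most 10.8% in the other libraries.

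Promoter windows of the RefSeq annotation (GRCm38.p6, the assembly that mm10 names) were found for all 8 genes, as 9 windows of 250 bases before a transcription start, since *Igfbp2* has 2 starts. The windows of the genes with the largest difference (*Igfbp4*), the highest level (*Igfbp5*) and the lowest adjusted p (*Igfbp2*, first start) are shown 5′ to 3′ on the strand of the gene, at chr11:99040994-99041243 (forward), chr1:72874866-72875115 (reverse) and chr1:72824230-72824479 (forward). Capitals mark matches, on either strand, to 5 motifs, none of which contains another. These were the GLI site GACCACCCA, the GC box, whose letters are GGGCGG, the TATA box, searched as TATAAA, the CCAAT box, searched as its name, and the E-box with the letters CACGTG.
Igfbp4: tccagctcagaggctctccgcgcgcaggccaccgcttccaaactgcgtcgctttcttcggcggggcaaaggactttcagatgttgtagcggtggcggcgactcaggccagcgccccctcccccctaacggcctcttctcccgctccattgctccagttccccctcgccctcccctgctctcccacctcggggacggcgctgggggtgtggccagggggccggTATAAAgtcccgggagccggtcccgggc
Igfbp5: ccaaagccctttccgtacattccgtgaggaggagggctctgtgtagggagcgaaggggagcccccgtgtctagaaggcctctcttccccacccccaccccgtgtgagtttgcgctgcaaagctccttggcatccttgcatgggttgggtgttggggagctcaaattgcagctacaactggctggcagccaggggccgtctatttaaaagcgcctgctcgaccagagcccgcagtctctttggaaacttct
Igfbp2: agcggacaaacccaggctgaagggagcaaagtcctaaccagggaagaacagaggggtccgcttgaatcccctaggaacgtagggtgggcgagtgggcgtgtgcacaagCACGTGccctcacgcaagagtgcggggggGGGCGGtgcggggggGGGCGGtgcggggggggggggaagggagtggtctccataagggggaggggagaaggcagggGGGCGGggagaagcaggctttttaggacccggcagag

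The windows of the 8 genes shared few of these motifs. GACCACCCA, the core that the GLI factors of HH signaling bind, was in 0 of the 9 windows and in 0.225% of all 32851 windows of this length. GGGCGG was in 4 windows, those of *Igf1r*, *Igf2r*, *Igfbp7* and the first of *Igfbp2*, and in 32.7% of all windows. TATAAA was found for *Igfbp4* alone, with its first base 28 bases before the start, and in 12.4% of all windows. CACGTG occurred for *Igf2r* and *Igfbp2*, with 6.02% of all windows holding it. CCAAT occurred for *Igf1*, with 33.8% of all windows holding it. The GC content of the windows ran from 52.8% for *Igf1* to 77.6% for *Igf1r*, and the median of all windows was 52.4%. These letters describe the windows and were not tested for binding.

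The differences of the other 7 genes kept their sign in every setting run, while that of *Igf2r* did not. Settings that changed only the filter, the estimate of variance or the threshold could not move a difference. *Igf2r* apart, the processing alternatives gave values between 0.24 and 1.57, and leaving out 1 pool gave values between 0.12 and 2.09. None of the 8 genes had an adjusted p under 0.05 in any of these settings.

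**Figure D4:**
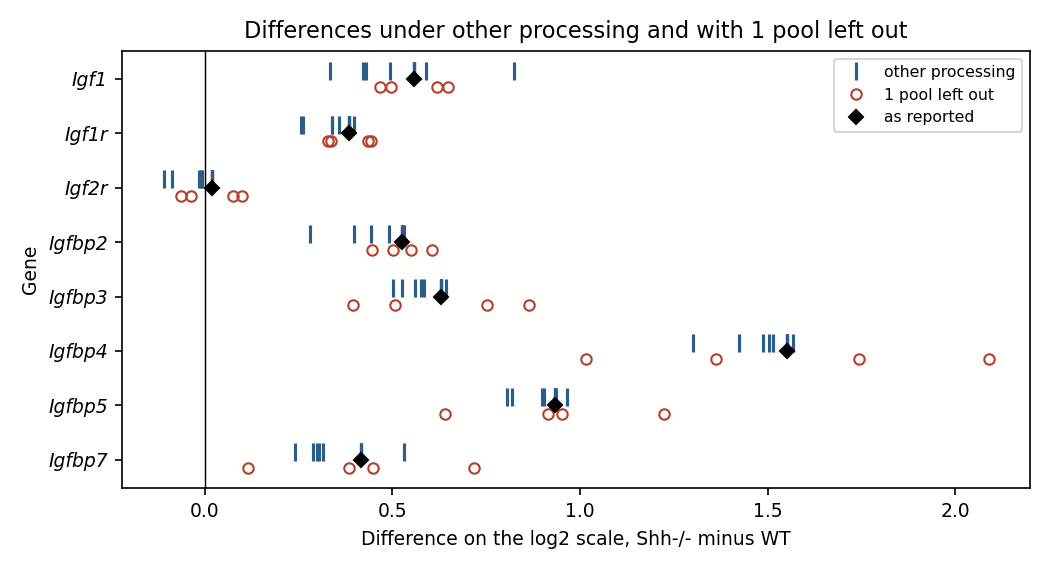
Difference on the log2 scale, *Shh*-/- minus WT, for each gene as reported (diamonds), under the other processing settings (blue ticks) and after leaving out single pools (open circles). *Igf2r* lies on both sides of 0, and *Igfbp4* spreads widest, from 1.02 to 2.09 with a pool left out.

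Other genes of the pathway were read from 5 lists with 48 members, of which 41 were tested. At an adjusted p under 0.05 limma called 0 of them in either direction, against 0.725% of all tested genes, and 15 had an unadjusted p under 0.05 (13 higher and 2 lower in *Shh*-/-), where 24.8% of all tested genes did (17.5% higher and 7.22% lower). The median difference of the 41 genes was 0.21 on the log2 scale. Both *Shh*-/- pools lay above both WT pools for 22 genes and below for 4, where 38.0% and 22.7% of all tested genes did so.

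Among the other ligands, receptors and binding proteins, 4 of 9 genes were tested. *Igf2*, the imprinted ligand gene that is the major IGF of the embryo, measured 1222 and 594.7 TPM in *Shh*-/- and 448.0 and 431.8 TPM in WT (log2 difference 0.95, standard error 0.34, limma adjusted p = 0.181). It exceeded *Igf1* in every library, by 32.4 to 62.2 times. *Igfbpl1*, an IGFBP-like gene of the developing nervous system, measured 20.9 and 20.5 TPM in *Shh*-/- and 7.25 and 4.21 TPM in WT. Its log2 difference of 1.73 (standard error 0.25) had a limma adjusted p of 0.068, the lowest of the 5 lists. *Igfbp1*, with its single high WT pool, had a fitted difference of -1.73 (standard error 1.33, limma adjusted p = 0.442). The insulin genes *Ins1* and *Ins2* were listed at 0 in all 4 libraries, and *Insr*, the insulin receptor gene, measured 15.4 and 13.3 TPM in *Shh*-/- and 13.2 and 11.9 TPM in WT.

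Of the 6 IGFBP protease and stanniocalcin genes 4 were tested, and 3 of these lay higher in both mutant pools, as did 38.0% of all tested genes. *Pappa* and *Pappa2*, the genes of the pappalysins that cleave IGFBP4 and IGFBP5, stayed below the filter. *Pappa* measured 0.86 and 0.84 TPM in *Shh*-/- and 1.07 and 1.02 TPM in WT. *Pappa2* measured 0.70 and 0.54 TPM in *Shh*-/- and 1.14 and 1.24 TPM in WT. Both thus lay lower in both mutant pools, as did 22.7% of all tested genes, but were not tested. *Htra1*, a secreted serine protease gene, measured 7.04 and 8.78 TPM in *Shh*-/- and 4.29 and 5.22 TPM in WT (log2 difference 0.63, limma adjusted p = 0.156). *Stc2*, whose protein inhibits PAPP-A, had a log2 difference of 0.38 (limma adjusted p = 0.313). All 3 *Igf2bp* genes, which encode RNA-binding proteins of fetal tissue, were abundant at 85.1 to 165.7 TPM. The larger differences among them were those of *Igf2bp2* (0.43, limma adjusted p = 0.179) and *Igf2bp3* (0.41, limma adjusted p = 0.191).

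Among the 9 receptor adaptor genes 8 had a fitted difference above 0, as did 58.3% of all tested genes. *Irs4*, an insulin receptor substrate gene, measured 16.2 and 6.38 TPM in *Shh*-/- and 4.56 and 2.62 TPM in WT, with a log2 difference of 1.33 (standard error 0.46, limma adjusted p = 0.176). *Shc1*, an adaptor that leads to the MAPK pathway, measured 95.1 and 78.7 TPM against 57.9 and 52.9 TPM (0.64, limma adjusted p = 0.103). *Grb10*, an imprinted adaptor gene that restrains signaling by IGF1R and the insulin receptor, was the most abundant gene of this list, with 823.2 and 745.2 TPM in *Shh*-/- and 682.7 and 750.5 TPM in WT.

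In the PI3K, AKT, mTOR and FOXO list, 13 of 21 genes had a difference above 0 and 8 below. Of all tested genes 58.3% had one above 0. The kinase genes *Akt1* and *Akt2* had the largest differences, 0.55 and 0.57 on the log2 scale, each with a limma adjusted p of 0.119. *Akt1* measured 217.7 and 177.3 TPM in *Shh*-/- and 140.4 and 127.1 TPM in WT. *Akt2* measured 55.9 and 51.1 TPM in *Shh*-/- and 39.3 and 32.5 TPM in WT. Both genes thus lay higher in both mutant pools, as did 38.0% of all tested genes. Of the 21 genes, 9 lay higher in both mutant pools and 4 lay lower in both, where 22.7% of all tested genes lay lower. *Rictor* had the largest difference below 0, -0.55 (limma adjusted p = 0.219). It measured 13.3 and 9.79 TPM in *Shh*-/- and 14.8 and 19.9 TPM in WT.

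**Figure D5:**
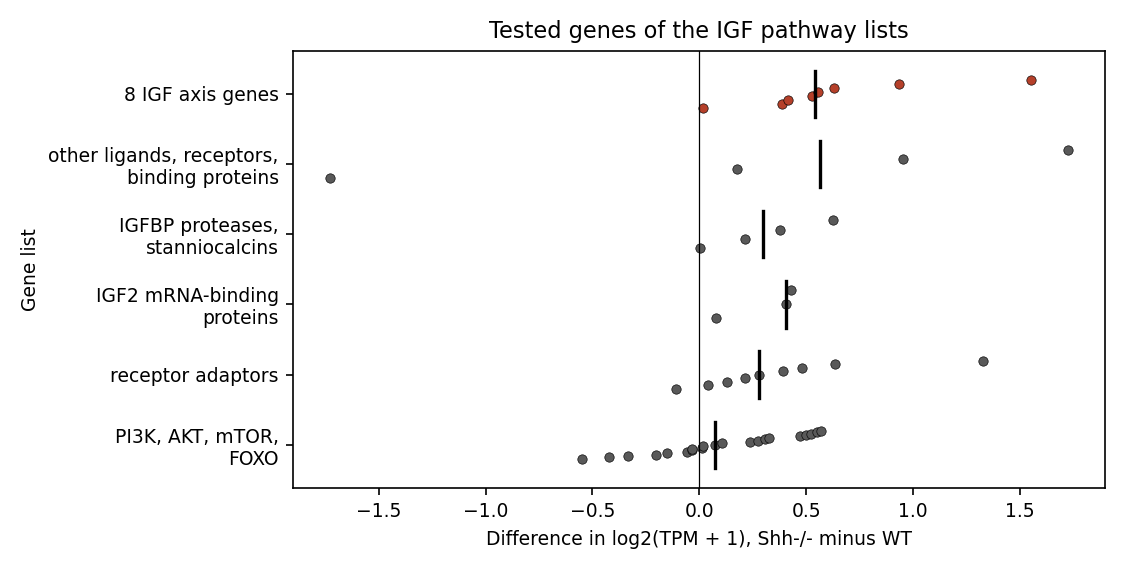
Fitted difference in log2(TPM + 1), *Shh*-/- minus WT, of each tested gene in the 8 IGF axis genes (red) and in 5 lists of the pathway (gray), with a vertical bar at the median of each list. The medians lie between 0.08 for the PI3K list and 0.57 for the other ligands, receptors and binding proteins, where *Igfbp1* lies at -1.73.

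Markers of several cell types differed between the genotypes. In whole-tissue RNA a change in the number of cells of a type and a change in RNA per cell cannot be told apart. Summed over a list of 7 neuron genes, the level was 668.6 and 754.6 TPM in *Shh*-/- and 156.6 and 98.8 TPM in WT, and 4 of the 7 were called higher, against 0.560% of all tested genes. The sum of 8 muscle genes was 162.1 and 239.7 TPM in *Shh*-/- pools 1 and 2 and 62.8 and 73.9 TPM in WT. Of these 8 genes *Myh7*, a slow myosin heavy chain gene, was called higher (log2 difference 2.13, limma adjusted p = 0.0422), at 16.8 and 12.6 TPM in *Shh*-/- and 2.79 and 2.32 TPM in WT. Of the 8, 6 lay higher in both mutant pools, as did 38.0% of all tested genes. Among the myogenic factor genes *Myod1* and *Myog* overlapped between genotypes, while *Myf5* lay higher in both mutant pools. The order of the mutant pools also differed within the list. *Tnnt2*, the cardiac troponin T gene, measured 10.4 and 20.6 TPM in them and 2.47 and 3.90 TPM in WT. *Myod1* measured 3.06 and 1.32 TPM in *Shh*-/- and 1.33 and 0.90 TPM in WT. The 6 endothelial genes summed to 293.0 and 342.3 TPM in *Shh*-/- and 194.7 and 182.3 TPM in WT. By limma 0 were called, and all 6 were higher at an unadjusted p under 0.05, as were 17.5% of all tested genes. The 6 neural crest genes summed to 101.9 and 86.1 TPM against 66.1 and 48.8 TPM. Of the 5 tested, limma called 0, and 3 were higher at an unadjusted p under 0.05, against the same 17.5%.

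Of the 7 mesenchymal genes, only *Twist1* was called higher in *Shh*-/- (log2 difference 1.57, limma adjusted p = 0.0323), as were 0.560% of all tested genes. By limma 4 of the 7 had an unadjusted p under 0.05, 3 higher and 1 lower, against 17.5% and 7.22% of all tested genes. *Col3a1* overlapped between genotypes. The sums of the list were 1111 and 999.6 TPM in *Shh*-/- and 776.9 and 796.6 TPM in WT. *Foxf1*, an HH-dependent mesenchymal factor, measured 0.85 and 9.57 TPM in *Shh*-/- and 72.3 and 64.6 TPM in WT. The 8 epithelial genes summed to 649.2 and 571.4 TPM in *Shh*-/- and 596.5 and 584.8 TPM in WT, so that their ranges overlapped, while the foregut markers *Foxa2* and *Nkx2-1* among them lay lower in both mutant pools, *Foxa2* at 5.34 and 9.12 against 29.2 and 39.8 TPM. *Cdh1* also lay lower in both mutant pools, the general epithelial genes *Epcam*, *Krt8* and *Krt18* lay higher in both, *Krt8* at 124.3 and 107.7 against 84.0 and 86.5 TPM, and *Krt19* and *Cldn6* overlapped between genotypes. By limma 0 of the 8 epithelial genes were called, and 3 had an unadjusted p under 0.05 (1 higher and 2 lower). Of all tested genes 24.8% passed this limit (17.5% higher and 7.22% lower). The 6 macrophage genes summed to 10.6 to 14.0 TPM over the libraries, and the sums of the 6 red blood cell genes overlapped between genotypes. The part of these cell types in the values of the 8 genes was not tested.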

How the data were processed

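RNA of 4 pools of 3 E10.5 larynxes was prepared as poly(A)-selected, directional libraries and sequenced single-end. Reads were aligned to mm10 with HISAT2 2.1.0 and assembled into genes with StringTie 1.3.6. The tables deposited by the authors hold, per gene, a read coverage that is not normalized between libraries. They also hold FPKM values, which the authors obtained with StringTie by scaling for length and aligned reads. The TPM values deposited by the authors sum to 1000000 in each library. The annotation release and any strand setting are not given in the sources used here. No read counts were used, so no counting interval is given.

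TPM was summed per gene ID. Aligned gigabases were taken from the ratio of coverage to FPKM in genes of 1 GENCODE M21 transcript, and for other genes the listed coverage can be below the value that FPKM implies. Genes with a mean of 1 TPM or more (16972) were fitted in limma 3.58.1 under R 4.3.3, on log2(TPM + 1), by lmFit and a trended eBayes. The contrast was *Shh*-/- minus WT without covariates, and p-values were adjusted after Benjamini-Hochberg with a threshold of 0.05. Fold changes on this scale understate the change of genes with low TPM. The scripts were tested on simulated data. The 8 genes and all lists were chosen with earlier results of these data known, and the liver and gut endoderm list after values of these data were seen.

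Genes named are the 8, *Shh* and *Ptch1*, members of the pathway lists (with values for those past the threshold and the 2 with the largest absolute difference in each list), and the 3 nearest profiles of the gene with the largest difference upward. Since no fitted difference was below 0, no profile was sought for a fall. *Igf2*, *Insr*, *Grb10*, *Rictor*, *Airn*, *Polr2b*, *Afp* and the marker genes given by name were added after their values were seen.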

Additional observations from a re-analysis of the deposited data

How the results depend on the processing

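The alternatives were a pseudocount of 0.1, no filter, a filter at a mean of 5 TPM, median centring, quantile normalization, FPKM, eBayes without trend, an adjusted p under 0.10, a correction for GC content and transcript length (16887 genes) and each pool left out. Listed coverage in place of TPM was added after the data were seen. The changed filters, eBayes without trend and the limit of 0.10 leave each fitted difference as it was, so its sign could not turn there. Of 111 gene values so obtained for the 8 genes, 103 kept sign and side of the threshold; *Igfbp7* did not pass the filter at 5 TPM. *Igf2r* turned negative with the GC and length correction (-0.087), FPKM (-0.015), listed coverage (-0.010), median centring (-0.110) and quantile normalization (-0.008), and ran from -0.063 to 0.099 with 1 pool left out; the cause was not tested. An adjusted p under 0.10 called 1 of the 8 genes (*Igfbp2*), 1 gene of the pathway lists (*Igfbpl1*) and 858 genes in all. The count of 123 genes became 73 with the GC and length correction, 69 with a pseudocount of 0.1, 0 without a filter (5011 at an unadjusted p under 0.05), and 0 to 16 with 1 pool left out, where the lone pool is assumed to vary like the others. The difference in the *Igfbp5* share was 1.2 percentage points and ran from -6.49 (without *Shh*-/- pool 1) to 8.89. That in the *Igfbp4* share, 6.89 points, was 0.0636 without *Shh*-/- pool 2. Median centring moved the median of all tested genes from 0.08 to -0.05. No paired analysis was possible because the genotypes share no pool numbers. The spread of 2 pools and TPM without counts limit the precision.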
